A study of Homo sapiens with 2 samples.

Results

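Cells with many transcripts of mitosis genes were set against cells with none among human ovarian carcinoma cells recovered from tumours in mice. The cells were selected by their counts of 7 genes: TOP2A, CCNB1, CDC20, PLK1, CENPF, KIF20A and AURKA. The sum of the unique molecular identifiers (UMIs, counted transcripts) of these genes in a cell is called its score. Cells with a score of 10 or more are called high-score cells and number 296; cells with a score of 0 are called score-0 cells and number 2035. Both come from 2994 cells that passed the filters, out of 9083 cell barcodes in all, and the remaining 663 cells had scores of 1 to 9.

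The cells were OVCAR5, an established ovarian carcinoma line that here carries a reporter sensing interferon gamma, grown as tumours in NSG-B2m-/- mice, a strain without T, B and NK cells of its own. Of the 13 pooled tumours, 3 had been injected with TNFa (10 ng/ml, 6 h), 2 with IFNy (100 ng/ml) plus TNFa (10 ng/ml, 6 h), 2 with IFNy alone (100 ng/ml, 24 h) and 1 with IFNy alone (100 ng/ml, 48 h), while 2 of the unexposed tumours were collected at 6 h, 2 at 24 h and 1 at 48 h. All cells had been sorted for the fluorescent protein CFP, which the labels equate with bystander tumour cells, so every high-score and every score-0 cell shares that gate, the line, the reporter and the host. Antibody hashtags marked the tumours, and the cells fell into 13 hashtag pairs such as HTO2+HTO5, but the labels do not say which pair marks which tumour. High-score and score-0 cells were therefore compared within hashtag pairs, never between treatments. All of them came from 1 library and were chosen by counts of the same contrast, so no p-value is given, and intervals below are 95% intervals that cover counting error only.

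A dividing cell copies its DNA in S phase, prepares in G2 and separates its chromosomes in mitosis. Genes for the later steps are transcribed from late S phase on, and many are held silent in resting cells by the DREAM complex and activated in G2 by complexes that contain B-MYB and FOXM1. Cyclin B with CDK1 drives entry into mitosis, Aurora and Polo-like kinases build the spindle, and the anaphase-promoting complex with CDC20 ends it by marking cyclin B and securin for destruction. In tumour cells these transcripts report on how many cells are cycling, and they peak in G2 and mitosis together, so that transcript counts alone do not separate the phases.

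The score was set mostly by TOP2A, the topoisomerase that untangles chromosomes, which gave 35.1% of the UMIs of the score in high-score cells, and by CENPF, a kinetochore protein, which gave 24.9%. The other shares were 13.6% for CCNB1 (cyclin B1), 10.7% for AURKA (Aurora kinase A), 9.55% for CDC20 (the activator of the anaphase-promoting complex), 4.55% for PLK1 (Polo-like kinase 1) and 1.76% for KIF20A (a kinesin of the central spindle). A UMI of CENPF was present in 291 of the 296 high-score cells, of TOP2A in 290, of CCNB1 in 264, of AURKA in 256, of CDC20 in 254, of PLK1 in 189 and of KIF20A in 130. All 7 genes were found in 91 cells, at least 5 in 248 cells, and no cell had fewer than 2. Scores ran from 10 to 160 with a median of 35. The 8 cells at a score of 10, just inside the threshold, had a median of 12847.5 UMIs and 267 CPM of TOP2A (CPM are counts scaled to the same total of UMIs), and the 9 cells at a score of 9, which belong to neither group, had 10029 UMIs and 154 CPM. These values chose the cells and are given as a description.

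Each scoring gene was also read in cells chosen by the other 6 genes alone, again as 10 or more UMIs against 0. These cells differ for each gene and are not the high-score and score-0 cells defined above. For TOP2A they were 250 and 2172 cells. Here and below, a level in score-0 cells is the one expected if they had the same mix of hashtag pairs as the high-score cells, and a ratio is the level in high-score cells over it. In cells so chosen, with levels and ratios formed in the same way, TOP2A had 976 CPM against 8.08 CPM, a ratio of 121 (101 to 145). KIF20A had 45.6 against 0.151 CPM, a ratio of 303 (102 to 1494) that rests on 3 UMIs in cells with none of the other 6 genes. PLK1 had a ratio of 204 (108 to 441), CDC20 99.8 (71.1 to 145), CENPF 81.8 (68.3 to 98.9), CCNB1 74.98 (59.2 to 96.4) and AURKA 36.0 (29.8 to 43.9). All 7 were higher in the cells with 10 or more UMIs of the other 6, in each hashtag pair with 10 or more such cells. These were 10 pairs for TOP2A, 11 for CENPF and 12 for each other gene. AURKA had the lowest ratio of the 7, with 129 UMIs in cells that had none of the other 6 genes.

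Many genes of mitosis carry a pair of short elements before their start. The cell cycle genes homology region (CHR) is the element through which the DREAM and B-MYB complexes are known to act, and the CCAAT box binds NF-Y. The stretches below are the last 150 bases before the transcription start, on the gene's strand, from the RefSeq promoter table (build GRCh38.p14), with TTTGAA (CHR) and CCAAT, on either strand, in capitals. They are shown since they hold both elements in scoring genes (CDC20, PLK1) and in genes that did not choose the cells (CDCA8, CKS2), the CCAAT box only (CCNB1), or neither (TUBA1B).
CDC20, chr1:43358831-43358980, plus strand: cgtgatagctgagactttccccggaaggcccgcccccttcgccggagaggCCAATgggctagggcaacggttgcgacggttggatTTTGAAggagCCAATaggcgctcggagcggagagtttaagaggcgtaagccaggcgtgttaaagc
PLK1, chr16:23678739-23678888, plus strand: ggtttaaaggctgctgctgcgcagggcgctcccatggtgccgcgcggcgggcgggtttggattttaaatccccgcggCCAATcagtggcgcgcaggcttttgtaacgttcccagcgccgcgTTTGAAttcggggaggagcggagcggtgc
CDCA8, chr1:37692366-37692515, plus strand: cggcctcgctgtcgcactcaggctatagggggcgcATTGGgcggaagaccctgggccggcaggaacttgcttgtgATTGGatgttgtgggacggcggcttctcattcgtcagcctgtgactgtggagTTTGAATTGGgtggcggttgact
CKS2, chr9:89311045-89311194, plus strand: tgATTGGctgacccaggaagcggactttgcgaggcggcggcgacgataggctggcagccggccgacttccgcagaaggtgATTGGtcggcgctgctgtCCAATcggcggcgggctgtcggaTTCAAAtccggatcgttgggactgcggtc
CCNB1, chr5:69167000-69167149, plus strand: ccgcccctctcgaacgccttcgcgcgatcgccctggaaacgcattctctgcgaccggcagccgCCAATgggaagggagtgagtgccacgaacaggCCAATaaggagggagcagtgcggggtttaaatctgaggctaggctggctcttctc
TUBA1B, chr12:49131396-49131545, minus strand: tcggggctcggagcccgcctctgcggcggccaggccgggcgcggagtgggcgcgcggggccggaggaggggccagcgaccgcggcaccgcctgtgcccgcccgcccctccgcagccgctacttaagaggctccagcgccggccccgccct

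In these stretches the CHR lay 65 bases before the start in CDC20, 29 in PLK1, 23 in CDCA8 and 29 in CKS2, and in CDCA8 its last base was also the first of a CCAAT box on the other strand. In the whole window of the table, 250 bases before to 50 bases after the start, TTTGAA on either strand was present in 43 of 69 promoters (62.3%) of mitosis-list genes at least 10 times as high in high-score as in score-0 cells. It was present in 7 of 44 (15.9%) of mitosis-list genes under the 2-fold line, in 4 of 67 (5.97%) of other cell cycle genes past that line, in 9.48% of 9796 promoters of all measured genes and in 15.4% of the 27305 promoters in the table. CCAAT on either strand was present in 68.1%, 45.5%, 55.2%, 36.7% and 35.7% of the same 5 sets. The promoter table had entries for 69 of 85, 44 of 44, 67 of 104 and 9796 of 12993 genes of the first 4 sets. The shares cover only genes with an entry. The E2F letters TTGGCGC were present in 13.04% of the first set and in 22.4% of the other cell cycle genes, against 5.05% of measured genes. Of the scoring genes, 6 matched the table, with CCAAT in 6 and TTTGAA in 4; AURKA had no entry. Read on the other strand, CCAAT is ATTGG, whose letters can overlap those of TTGGCGC and TTTGAA, and matches of each motif were counted separately. A match is a description of letters, and the presence of a factor was not measured.

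High-score cells were larger libraries. Their median was 15899.5 UMIs and 4199 genes, against 7915 UMIs and 2677 genes in score-0 cells. Within hashtag pairs the ratio of the median UMIs ran from 1.68 (HTO3+HTO7) to 2.29 (HTO4+HTO6) and was above 1 in 13 of 13. A cell with more UMIs reaches a score of 10 more easily, and a score of 0 is easier to keep with fewer, so that depth is in part built into both groups. When each cell was thinned to 5000 UMIs, the medians were 2103 genes in 294 high-score cells and 1979 genes in 1769 score-0 cells (2 and 266 shallower cells were left out). Hashtag antibodies, which read the cell surface and no RNA, gave a median of 978.5 counts per high-score cell and 976 per score-0 cell. Within pairs the hashtag ratio ran from 0.752 to 1.399 with a median of 1.19, and it was above 1 in 9 of 13 pairs. Mitochondrial transcripts made up a median of 13.5% of UMIs in high-score and 15.2% in score-0 cells. For each level below, CPM compares shares of the transcripts. With about 2 times the UMIs, a gene with a ratio below 1 can have more UMIs per high-score cell. B2M, with a ratio of 0.647, had 52.3 against 40.1. UMIs per cell are therefore given beside the response and stress lists.

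**Figure D1:**
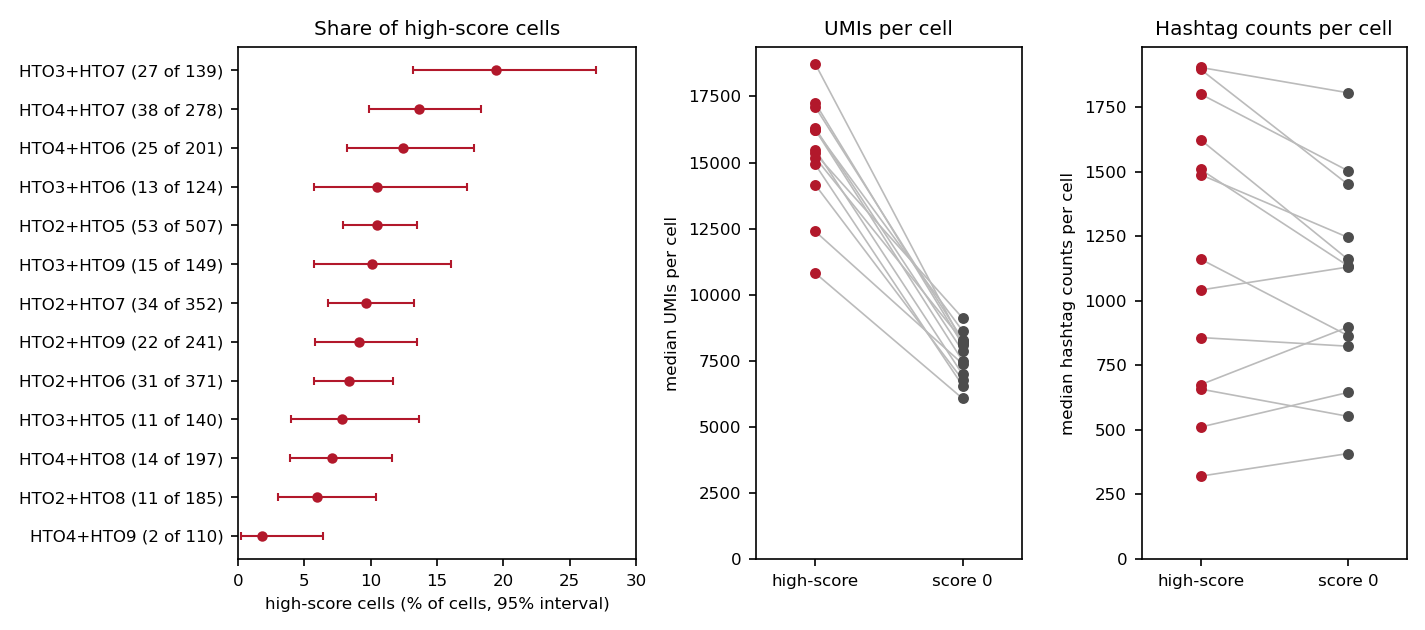
Left, the percentage of high-score cells in each hashtag pair with its exact 95% interval; middle and right, the median UMIs and hashtag counts per cell in high-score (red, left) and score-0 cells (grey, right), with 1 line per pair. UMIs were higher in high-score cells in 13 of 13 pairs, hashtag counts in 9 of 13.

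Of all cells with a clear hashtag pair, 9.89% were high-score cells (8.84 to 11.01). The share was highest in HTO3+HTO7, at 27 of 139 cells or 19.4% (13.2 to 27.0), and lowest in HTO4+HTO9, at 2 of 110 or 1.82% (0.221 to 6.41). The median pair had 9.66%. HTO4+HTO7 (13.7%) and HTO4+HTO6 (12.4%) followed HTO3+HTO7, and HTO2+HTO8 (5.95%) and HTO4+HTO8 (7.11%) came next to the lowest. The intervals of HTO3+HTO7 and HTO4+HTO9 did not overlap, while those of neighbours in this order did. With cells thinned to 5000 UMIs these 2 stayed at the ends, at 15.3% and 1.27%, but HTO3+HTO6 (9.89%) and HTO3+HTO9 (8.15%) then came before HTO4+HTO7 (7.95%) and HTO4+HTO6 (7.53%), and HTO2+HTO9 was at 3.93%, against 9.13% unthinned. The order also depended on the mitochondrial limit. With up to 50% mitochondrial UMIs allowed, HTO3+HTO7 was at 9.62%, beside 9.55% in HTO4+HTO7, and HTO4+HTO9 stayed lowest at 3.21%. With at most 10% and at least 1000 genes, which left 53 high-score cells in all, HTO3+HTO7 was highest at 28.6%. HTO2+HTO8, HTO3+HTO6 and HTO4+HTO9 were then at 0%, and HTO2+HTO9 was at 18.9%. Levels within pairs are given for the 12 pairs with 10 or more high-score cells, which leaves out HTO4+HTO9.

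Over all genes, 12993 of 36601 had 30 UMIs or more in both groups together and are called measured. Of measured genes, 967 (7.442%) were 2-fold or more higher in high-score cells and 1170 (9.005%) were at 0.5 or less, with a median log2 ratio of -0.03. At 10-fold or more, 187 genes were higher and 26 lower, and 66 against 11 passed 50-fold. Each count on the higher side takes in the 7 scoring genes, whose 0 in score-0 cells was set by the choice of cells. The 11 lower genes past 50-fold were those with no UMI in high-score cells, which had fewer UMIs in all than score-0 cells. Many of the lower calls were genes with few UMIs: with at least 100 UMIs asked of a gene, 623 were at 0.5 or less. Of the 100 highest ratios outside the scoring genes, 60 belonged to the 9 mitosis lists and 19 to other cell cycle lists. These ratios come from the contrast that chose the cells, so they describe it and support nothing beyond it, here and for the lists below.

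**Figure D2:**
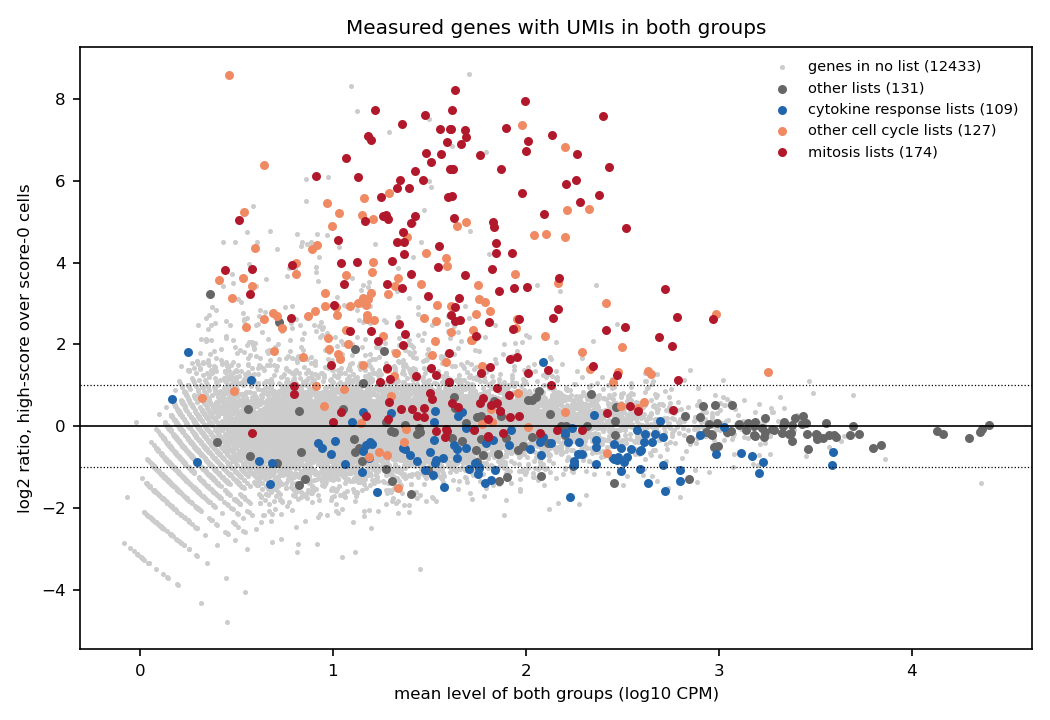
Each point is a measured gene with UMIs in both groups: its mean level (x, log10 CPM) against its log2 ratio of high-score over score-0 cells (y), coloured by list class; dotted lines mark 2-fold. Many mitosis genes (red) lie far above most genes in no list at the same level, though some of those, such as DEPDC1, reach ratios as high. Cytokine response genes (blue) lie mostly below 0.

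The 25 gene lists, of 575 genes, were read as summed levels. Beyond the 4 genes of a list with the most UMIs, members were named after their values were seen. For single genes that an alternative moved by over 1.5 times or across a 2-fold line, its value is given for those with many UMIs. Depth matched compares cells of the same pair and the same of 4 bins of UMI totals. In the lowest bin, with 1795 score-0 cells, the medians still differed, at 9703 UMIs in high-score and 7532 in score-0 cells. Split counts choose the cells on a random part of the UMIs and read the rest. The stricter filter asks for at most 10% mitochondrial UMIs and leaves 53 high-score cells. All 9 mitosis lists and 4 of the 5 other cell cycle lists were higher in high-score cells in 12 of 12 pairs, and 131 of 175 measured mitosis genes and 104 of 127 other cell cycle genes passed 2-fold, against 7.442% of all measured genes. Of the mitosis genes, 0 were at 0.5 or less, against 9.005% of all.

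**Figure D3:**
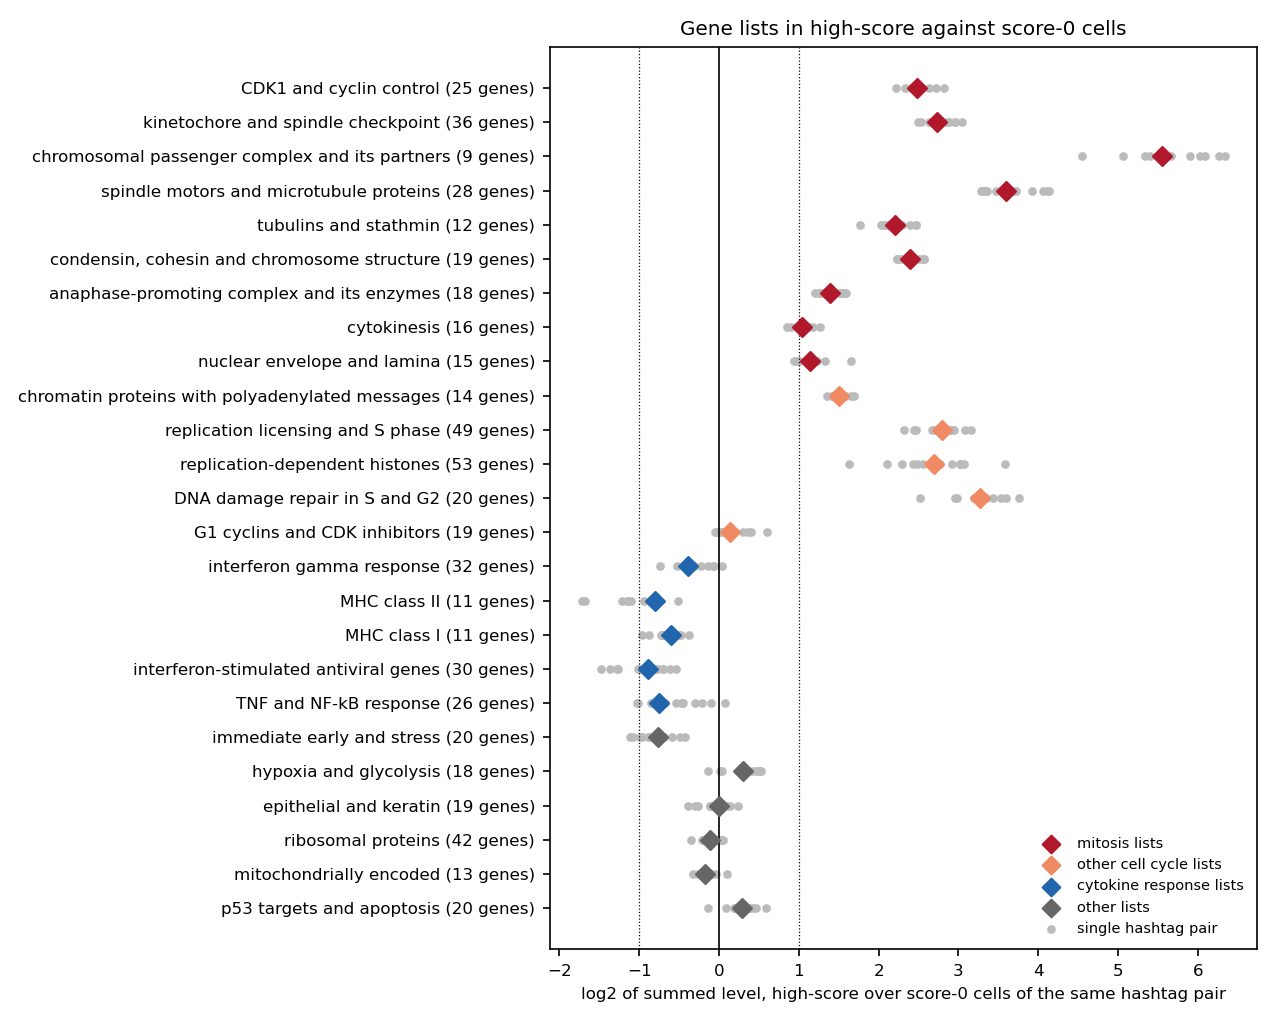
Summed level of each gene list in high-score over score-0 cells (log2 ratio): diamonds for all cells matched on hashtag pair, small grey points for the 12 pairs with 10 or more high-score cells, dotted lines at 2-fold. Mitosis and most cell cycle lists lie right of 0 in every pair, and most cytokine response lists left of it.

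Among regulators of entry into mitosis, 20 of 25 genes of the CDK1 and cyclin list passed 2-fold, and the list had 2071 CPM in high-score and 369.8 CPM in score-0 cells, a ratio of 5.60 (5.42 to 5.79), or 15.2 as a median over members. CDKN3, a phosphatase that acts on CDKs and had the most UMIs of this list in high-score cells, had 372 against 8.39 CPM, a ratio of 44.4 (37.2 to 53.4). Over the 12 pairs, CCNB2, the second cyclin B, had a lowest, median and highest level of 94.8, 206 and 295 CPM in high-score cells, against 0, 1.44 and 4.41 CPM in score-0 cells. CDK1 itself had 67.2, 81.0 and 92.7 CPM in high-score cells, against 0, 0.413 and 1.38 CPM in score-0 cells. For both genes the lowest high-score pair lay above the highest score-0 pair, and the ratios were 126 (83.7 to 198) and 154 (80.7 to 335). The share of all measured genes without such overlap is not given, so here and below a lack of overlap only describes the named gene. PBK, a mitotic kinase (ratio 213), CCNA2, cyclin A2 (195), GTSE1 (152), CDC25C, the phosphatase that switches CDK1 on (127), FOXM1 (64.9) and MYBL2, which encodes B-MYB (56.6), were likewise far higher in high-score cells. CKS2, a small CDK subunit, had a ratio of 12.3 and its relative CKS1B 2.76, while WEE1, the kinase that holds CDK1 back, had 4.21. ENSA, an inhibitor of the phosphatase PP2A, had 100 CPM in high-score and 84.3 CPM in score-0 cells, a ratio of 1.19 (1.07 to 1.32), and LIN54, a DNA-binding part of the DREAM core, had 1.73 (1.14 to 2.59).

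Kinetochore and spindle checkpoint genes passed 2-fold in 31 of 36 cases, with 2636 CPM in high-score and 395 CPM in score-0 cells for the list (ratio 6.67, 6.46 to 6.88, or 17.3 as a median over members). The most divided members were HJURP, the chaperone that loads the centromere histone, with 85.3 against 0.288 CPM (ratio 296, 122 to 964), and that histone itself, CENPA, with 82.5 against 0.389 CPM (ratio 212, 99.4 to 556). The checkpoint kinase genes BUB1 and BUB1B had ratios of 133 and 78.1, the outer kinetochore genes NUF2 and NDC80 155 and 77.7, and CENPE, a kinesin that moves chromosomes, 51.7. BUB3 (2.61) and PMF1 (1.13, 0.992 to 1.28), which had many UMIs in both groups, were far closer between the groups than these. SKA1, a kinetochore protein, had 42 UMIs in high-score cells and 0 in score-0 cells, at least 47.5-fold higher when 3 UMIs are set for the 0. It was the only measured gene outside the 7 scoring genes with no UMI in score-0 cells.

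The chromosomal passenger complex, which corrects faulty attachments and later guides cytokinesis, had the highest summed ratio of the 25 lists, while as a median over members the spindle motors were higher, at 49.0 against 42.5. It summed to 772 CPM in high-score and 16.5 CPM in score-0 cells, a ratio of 46.7 (41.0 to 53.5), and all 8 of its measured genes passed 2-fold. Over the 12 pairs BIRC5 (survivin) had 292, 354 and 508 CPM in high-score cells as its lowest, median and highest level, against 1.76, 3.83 and 15.3 CPM in score-0 cells. AURKB, the complex's kinase, had 68.2, 80.9 and 117 CPM in high-score cells, against 0, 1.15 and 3.53 CPM in score-0 cells. Neither gene overlapped between the groups. The ratios were 65.2 for BIRC5, 78.5 for AURKB, 78.1 for CDCA8 (borealin), 22.6 for INCENP and 56.1 for SGO1 (shugoshin), which protects centromere cohesion. BIRC5 was at 42.4 with split counts, and AURKB at 119.5 and CDCA8 at 32.8 with depth matched.

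Spindle motors and microtubule proteins passed 2-fold in 27 of 28 cases and summed to 3193 CPM in high-score and 263 CPM in score-0 cells, a ratio of 12.1 (11.7 to 12.6), or 49.0 as a median over members. TPX2, which activates Aurora A on the spindle, had the most UMIs, with 331, 489 and 595 CPM as its lowest, median and highest pair among high-score cells, against 3.11, 9.81 and 21.2 CPM among score-0 cells. NUSAP1, a spindle bundling protein, had 366 against 3.66 CPM (ratio 100.1, 76.4 to 134, or 165 with depth matched). DLGAP5 (246), NEK2, a centrosome kinase (169), KIF2C (154), HMMR (140) and ASPM (105) had ratios of 100 or more, and the motor KIF11 had 34.2. NUMA1, a spindle pole protein that is also part of the resting nucleus, was the exception, with 71.4 CPM in high-score and 80.3 CPM in score-0 cells (ratio 0.890, 0.789 to 1.00).

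Tubulins, the building blocks of the spindle, were abundant in both groups and differed less. The list had 5459 CPM in high-score and 1187 CPM in score-0 cells (ratio 4.60, 4.51 to 4.69), with 8 of 11 past 2-fold. TUBA1B had 1386, 1631 and 1902 CPM as its lowest, median and highest pair among high-score cells, against 210, 261 and 352 CPM among score-0 cells, a ratio of 6.17 (5.94 to 6.41). TUBB4B had a ratio of 6.38, the microtubule destabiliser STMN1 4.49, TUBB 3.92 and TUBG1, the gamma tubulin of spindle poles, 5.20. TUBA1A was at 58.7 against 69.4 CPM (ratio 0.846, 0.741 to 0.963). Tubulin genes are near-identical copies, so a read may be assigned to the wrong copy and each single value is uncertain.

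Chromosome structure genes summed to 2949 CPM in high-score and 559 CPM in score-0 cells (ratio 5.27, 5.13 to 5.42), with 14 of 18 past 2-fold. MKI67, the coat of mitotic chromosomes and a standard proliferation marker that took no part in the score, had 421, 488 and 617 CPM as its lowest, median and highest pair among high-score cells, against 0, 2.55 and 4.41 CPM among score-0 cells. Its ratio was 191 (140 to 267). PTTG1, or securin, had 639 against 22.3 CPM (ratio 28.7, or 43.6 under the stricter cell filter). Condensin packs chromosomes in mitosis, and among its subunits NCAPG and NCAPH of condensin I had ratios of 119 and 102, while NCAPD3 of condensin II was at 5.96 and SMC4, shared by both, at 5.09. Cohesin, which also holds loops and sister strands between divisions, had ratios of 2.39 for RAD21, 1.99 for SMC3 (past 2-fold in 5 alternatives, at up to 2.23) and 0.921 (0.778 to 1.09) for STAG2, whereas CDCA5 (sororin), its protector in G2, had 123. TOP2B, a relative of TOP2A, had 32.9 against 35.5 CPM (ratio 0.927, 0.774 to 1.11), beside the TOP2A values above.

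The anaphase-promoting complex divided in a similar manner into its enzymes and its body. UBE2C, one of its ubiquitin-conjugating enzymes, had 435, 541 and 737 CPM as its lowest, median and highest pair among high-score cells, against 0, 4.62 and 13.5 CPM among score-0 cells (ratio 81.2, 67.0 to 99.4, or 37.9 under the stricter filter). UBE2S, the other, had 963 against 94.2 CPM (ratio 10.2, 9.64 to 10.9), and FBXO5, an inhibitor of the complex, had 8.80. Of 18 genes of this list, only these 3 and FZR1 (2.13), the activator of late mitosis and G1, passed 2-fold. The subunits lay near 1, from ANAPC13 at 0.832 (0.700 to 0.986) to CDC27 at 1.70 (1.52 to 1.89), with ANAPC11, the catalytic one, at 1.28. The list's summed ratio of 2.62 therefore rests on its enzymes, and the median of its members corresponds to 0.30 on the log2 scale.

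Cytokinesis genes passed 2-fold in 10 of 16 cases, and their sum had a ratio of 2.06 (2.01 to 2.11), or 10.9 as a median over members. KIF23 (157) and RACGAP1 (18.5), the motor and the GTPase activator of the central spindle, PRC1, its bundler (60.5), the scaffold ANLN (36.4), the kinase CIT (26.9) and ECT2 (7.27), which activates RhoA, were all far higher in high-score cells. RHOA itself had 291 CPM in high-score and 234 CPM in score-0 cells (ratio 1.24), and the septins, filament proteins used in many processes, were at 1.32 for SEPTIN7, 0.938 for SEPTIN2 and 0.932 for SEPTIN9. Nuclear envelope genes passed 2-fold in 9 of 15 cases with a summed ratio of 2.21 (2.15 to 2.26). Lamin B1 (LMNB1) had 162 against 8.64 CPM (ratio 18.7), VRK1, a kinase that loosens the envelope from chromatin, had 6.55 and TMPO, a lamin-binding protein, 6.25, while lamin A (LMNA) had 843 against 386 CPM (ratio 2.18, or 1.93 with depth matched) and the pore protein NUP98 had 1.58.

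Genes of S phase were also high in high-score cells. The replication list had 47 of 48 measured members past 2-fold and 3243 CPM in high-score against 469 CPM in score-0 cells (ratio 6.91, 6.72 to 7.11). RRM2, a subunit of the enzyme that makes deoxynucleotides, had 119, 186 and 298 CPM as its lowest, median and highest pair among high-score cells, against 0, 0.884 and 3.90 CPM among score-0 cells (ratio 165, 108 to 266). TYMS, which makes thymidylate, had a ratio of 38.6 (20.1 under the stricter filter), TK1 25.8, the licensing factor gene CDC6 12.4, the helicase genes MCM2 to MCM7 2.64 (MCM5) to 7.57 (MCM2), and PCNA, the polymerase clamp, 5.25. DNA repair genes of S and G2 passed 2-fold in 20 of 20 cases (ratio 9.69, 9.09 to 10.3), with FANCI at 29.6, BRCA1 at 18.8 and BRCA2 at 15.2 (10.02 under the stricter filter). Replication-dependent histones, made in S phase from messages without a poly(A) tail, summed to 2084 CPM in high-score and 323 CPM in score-0 cells (ratio 6.46, 6.24 to 6.69), with 22 of 28 measured members past 2-fold. HIST1H1B had a ratio of 114 (43.8 under the stricter filter and 302 with depth matched), HIST1H1D 39.5 (18.8 under the stricter filter) and HIST1H4C 8.09, while HIST1H2BD had 14.5 CPM in high-score and 23.8 CPM in score-0 cells (ratio 0.609). Histone genes resemble each other, so their single values are uncertain. How well a 3' library counts messages without a poly(A) tail was not tested. Chromatin proteins had a summed ratio of 2.83, led by HMGB2 at 24.6, H2AFX at 11.4 and H2AFZ at 6.69.

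The label of mitotic cells was checked against these lists. Cells of the lowest high-score band, with scores of 10 to 19 (65 cells), had the most S phase transcripts, at 4458 CPM, against 1965 CPM in the 44 cells with scores of 80 or more and 455 CPM in score-0 cells. Histone transcripts were highest at scores of 20 to 39 (2562 CPM) and lower at 80 or more (771 CPM). Spindle motor genes were higher in each higher band, at 1554, 2459 and 4027 CPM for scores of 10 to 19, 20 to 39 and 40 to 79 and 5131 CPM at 80 or more, and so were the chromosomal passenger genes (416, 599, 938 and 1242 CPM). Of the high-score cells, 3 had no UMI of the 5 scoring genes other than TOP2A and CENPF and 42 had 1 to 4. These 42 had 6034 CPM of S phase and 3662 CPM of histone transcripts, against 2779 and 1816 CPM in the 251 cells with 5 or more such UMIs. The high-score cells therefore hold S phase transcripts as well as those of G2 and mitosis, and they are called by their score here. The bands are not matched on hashtag pair, and the spindle and passenger genes move with a score to which they are close.

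**Figure D4:**
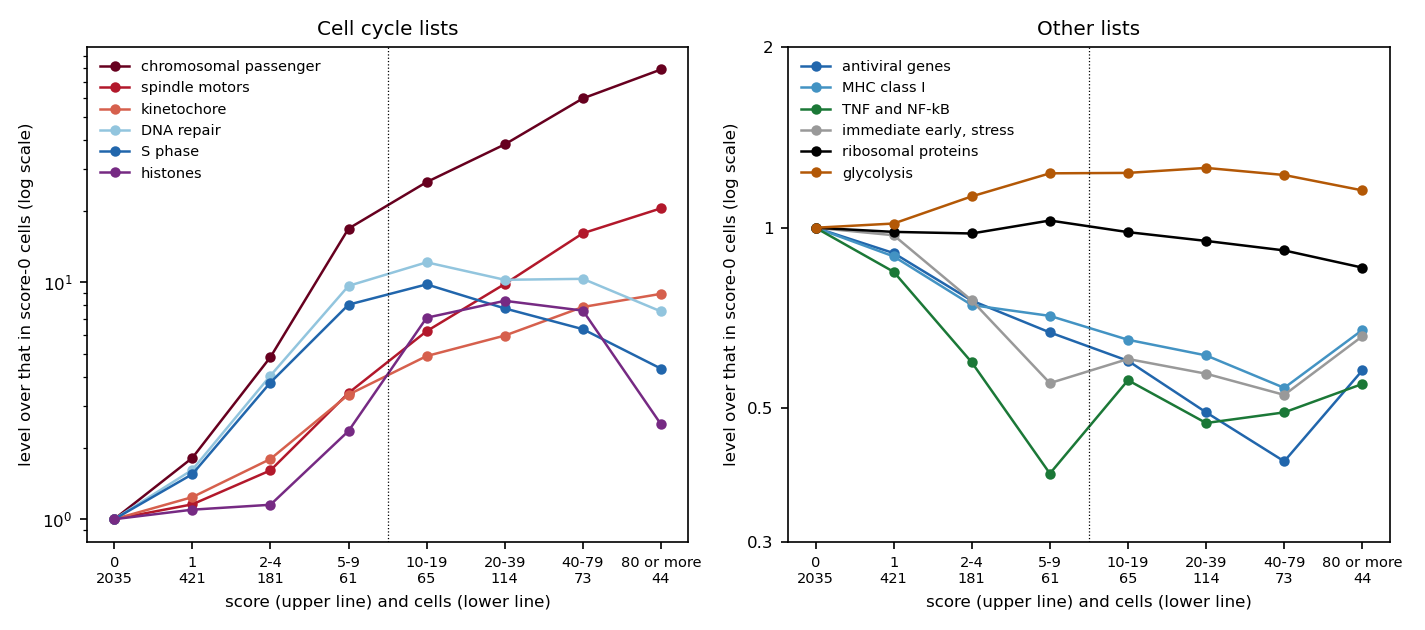
Summed level of gene lists by score, relative to score-0 cells (log scale), with the number of cells under each band; the dotted line marks the threshold of 10. Left, S phase and histone genes turn down at the highest scores while spindle and chromosomal passenger genes do not; right, antiviral, MHC class I, TNF and stress genes lie below 1 from low scores on.

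Genes that control G1 differed little as a list (ratio 1.10, 1.07 to 1.13). Of 17 measured members, 4 were past 2-fold and 1 at 0.5 or less, against 7.442% and 9.005% of all measured genes. Cyclin D1 (CCND1) had 440 CPM in high-score and 324 CPM in score-0 cells (ratio 1.36), CDK4 had 1.76 (2.52 under the stricter filter) and CDK6 0.987. The retinoblastoma relative RBL1 (4.44) and the CDK4 inhibitor genes CDKN2D (4.22) and CDKN2C (2.81) were higher in high-score cells, whereas CDKN1C, the inhibitor p57, had 11.3 CPM in high-score and 32.2 CPM in score-0 cells (ratio 0.351, 0.262 to 0.463). BTG1, an antiproliferative gene, had 204 against 325 CPM (ratio 0.629, or 0.455 under the stricter filter) and was lower in 12 of 12 pairs. CDKN2A (p16 and ARF) had 32 UMIs in high-score and 11 in score-0 cells and was higher in 4 pairs.

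Among genes in none of the lists, the 15 with the highest ratios were DEPDC1, ESCO2, E2F8, PIMREG, SHCBP1, DIAPH3, CDCA3, DEPDC1B, NEIL3, PIF1, PRR11, ERCC6L, APOBEC3B, ASF1B and FAM111B. DEPDC1 had 101 CPM in high-score and 0.260 CPM in score-0 cells, a ratio of 388 (149 to 1470) that rests on 4 UMIs in score-0 cells. CDCA3, a trigger of entry into mitosis, had 123 against 1.18 CPM (ratio 104, 64.8 to 179), and DIAPH3, a formin of the contractile ring, had 82.3 against 0.713 CPM (ratio 115). ESCO2, which acetylates cohesin in S phase (ratio 320), E2F8, a repressor of the E2F family (208), and the histone chaperone ASF1B (38.7) belong to S phase by their known roles. APOBEC3B, a cytidine deaminase that mutates DNA in tumours, had 38 UMIs in high-score and 4 in score-0 cells (ratio 41.6, 14.7 to 166). With so few UMIs in score-0 cells these ratios are loosely set: 14 of the 15 moved by over 1.5 times under some alternative, such as DEPDC1 (113 to 584), ESCO2 (42.5 to 1789), E2F8 (79.2 to 1800), DIAPH3 (74.2 to 310) and CDCA3 (68.8 to 197), and the lowest value of any was 12.1.

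At the other end the 15 lowest ratios outside the lists belonged to genes with few UMIs: 11 had no UMI in high-score cells, among them ZEB2 (61 UMIs in score-0 cells), PCDHB11 (36) and CD38 (35), and the others, among them CBLN3 and ANGPT1, had 1 or 2. A second set was therefore chosen after the values were seen, by the lowest upper end of the interval. IGFBP5, a secreted binding protein of insulin-like growth factors that is known from senescent cells, had 4.56 CPM in high-score and 51.8 CPM in score-0 cells (ratio 0.0881, 0.0555 to 0.133) and was lower in 12 of 12 pairs. ST3GAL5, the enzyme that makes the ganglioside GM3, had 52.0 against 211 CPM (ratio 0.246, 0.216 to 0.280), and its antisense gene ST3GAL5-AS1 had 1 against 84 UMIs. The labels do not state whether counting used strand, so reads of this pair may be shared. PNRC1, a nuclear receptor coactivator, had 28.2 against 127 CPM (ratio 0.223, 0.186 to 0.264) without overlap between pairs, KLHL24 had 0.177, LOX, which crosslinks collagen, 0.137 and YPEL2 0.119, and all were lower in 12 of 12 pairs. TNFAIP6, a secreted protein induced by TNF, had 11 UMIs in high-score and 402 in score-0 cells (ratio 0.108), and CHI3L2 had 14 against 491 UMIs (ratio 0.119).

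Immediate early and stress genes were lower as a share of transcripts. The list had 1673 CPM in high-score and 2848 CPM in score-0 cells (ratio 0.587, 0.574 to 0.601), lower in 12 of 12 pairs. Of its 20 genes, 8 were at 0.5 or less and 0 past 2-fold, against 9.005% and 7.442% of all measured genes. TXNIP, an inhibitor of thioredoxin and glucose uptake, had 274, 392 and 753 CPM as its lowest, median and highest pair among high-score cells, against 667, 1080.5 and 1347 CPM among score-0 cells. FOS had 35.2, 151 and 212 CPM among high-score cells, against 215, 425 and 560 CPM among score-0 cells. FOS did not overlap between the groups and TXNIP did, with ratios of 0.379 (0.517 with depth matched) and 0.406. Per cell, TXNIP had 6.92 UMIs in high-score and 8.51 in score-0 cells and FOS 2.68 against 3.57, so that both were lower on that scale too, but the whole list was not, with 28.5 UMIs per high-score and 24.2 per score-0 cell. JUN had a ratio of 1.00 and HSPH1, a chaperone, 1.82 (1.66 to 2.00). Of the p53 and apoptosis list (ratio 1.22, 1.18 to 1.26), 4 of 20 genes passed 2-fold, against 7.442% of all measured genes. These were AEN (3.70), DDB2 (3.55), MDM2 (2.11) and FAS (2.07). CDKN1A, the best known p53 target and CDK inhibitor, had 25.0 CPM in high-score and 14.9 CPM in score-0 cells (1.67, 1.34 to 2.08).

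Genes of basic metabolism and of the epithelium stayed within 2-fold in nearly all cases. Ribosomal proteins had a ratio of 0.921 (0.918 to 0.925), or 1.03 with up to 50% mitochondrial UMIs allowed per cell, and mitochondrially encoded genes 0.888 (0.885 to 0.890), or 1.04 with at most 10%. Glycolysis and hypoxia genes had 1.23 (1.22 to 1.25) and epithelial genes 0.996 (0.985 to 1.01), or 0.778 with depth matched. Since high-score cells had about 2 times the UMIs, all 4 lists had more UMIs per cell there, with 1516 ribosomal protein UMIs per high-score and 818 per score-0 cell. Within the glycolysis list the enzymes PKM (1.42), ENO1 (1.43) and TPI1 (1.404) were above 1, and the hypoxia genes NDRG1 (0.319), CA9 (0.408) and ADM (0.472) were the 3 members at 0.5 or less. BNIP3 of the same list had 21 UMIs in high-score and 11 in score-0 cells and was the 1 past 2-fold. The list has 18 genes, and of all measured genes 9.005% were at 0.5 or less and 7.442% past 2-fold. KRT18, the keratin gene with the most UMIs, had a ratio of 1.04, or 0.812 with depth matched, and KRT7 one of 1.71 (1.60 to 1.83). CDH1, which encodes E-cadherin, had 45 UMIs in high-score and 26 in score-0 cells (ratio 5.81, 3.42 to 10.1), and the secreted proteins WFDC2 (0.508) and SLPI (0.533) were lower in 12 of 12 pairs.

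Interferon and TNF response genes, the readouts of the study, were lower as a share of transcripts in high-score cells of nearly every pair. Interferon-stimulated antiviral genes had 7871.5 CPM in high-score and 14610.0 CPM in score-0 cells, a ratio of 0.539 (0.533 to 0.545), MHC class II genes 0.573 (0.547 to 0.600), the TNF and NF-kB list 0.595 (0.586 to 0.605), MHC class I genes 0.661 (0.653 to 0.668) and the IFNg list of GBPs, chemokines and transcription factors 0.761 (0.751 to 0.771). As medians over members the ratios were 0.671 (antiviral), 0.557 (class II), 0.732 (TNF), 0.647 (class I) and 0.627 (IFNg). Class II was then lowest and TNF highest, so the order of the lists depends on the measure. IFI27 alone gave 33.4% of the antiviral UMIs in high-score cells. The antiviral and both MHC lists were lower in 12 of 12 pairs, the other 2 in 11 of 12. At 0.5 or less were 21 of the 109 measured response genes, against 9.005% of all measured genes. By list these were 8 of 26 (TNF), 6 of 30 (antiviral), 6 of 31 (IFNg), 1 of 11 (class II) and 0 of 11 (class I). Past 2-fold were 3 of the 109, against 7.442% of all. With score-0 cells matched on pair and depth the ratios were 0.606 (antiviral), 0.665 (class II), 0.625 (TNF), 0.775 (class I) and 0.787 (IFNg). Per cell, however, the UMIs of these lists were not fewer: high-score cells had 134 antiviral UMIs against 124 in score-0 cells, 124 against 93.0 for class I, 7.21 against 6.14 for class II, 56.3 against 47.1 for the TNF list and 95.1 against 64.3 for the IFNg list.

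**Figure D5:**
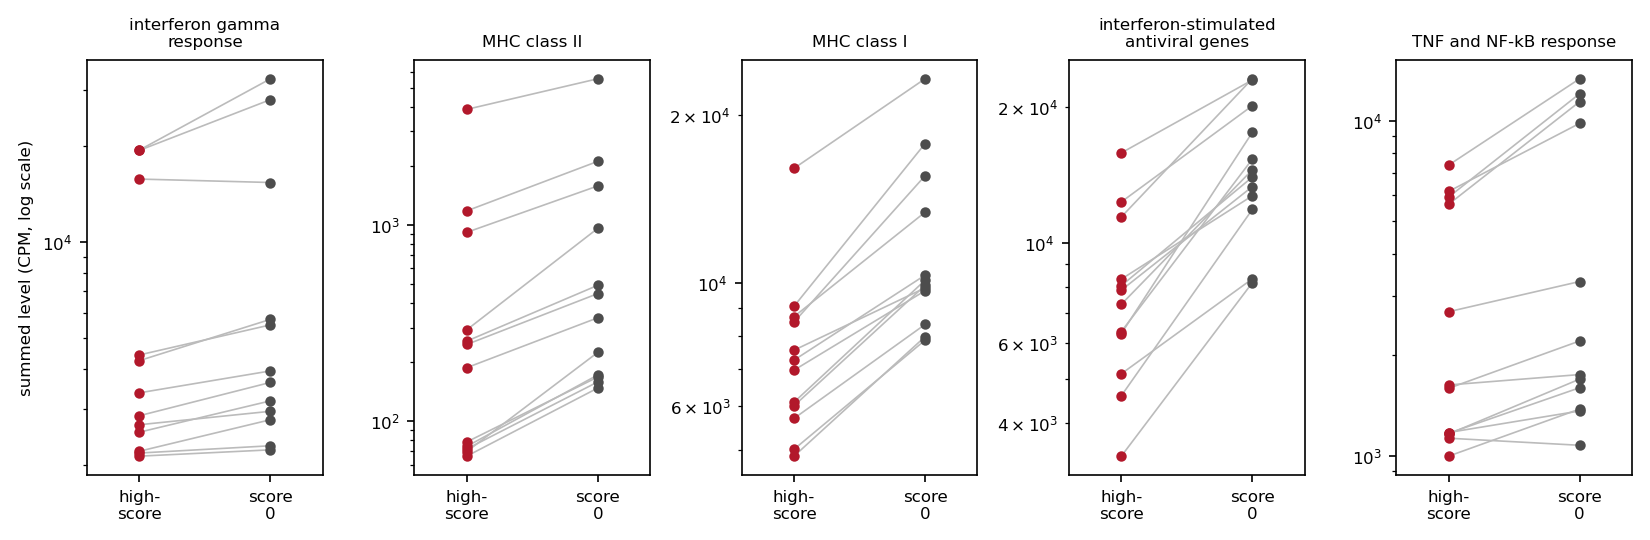
Summed level of each cytokine response list (CPM, log scale) in high-score (red, left) and score-0 cells (grey, right) of the 12 hashtag pairs with 10 or more high-score cells, 1 line per pair. Most lines run upward to the score-0 cells, and pairs that are high in score-0 cells are also high in high-score cells.

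The pairs kept their differences in both groups. In HTO2+HTO8 the IFNg list had 19457 CPM in high-score and 32575 CPM in score-0 cells, and in HTO2+HTO9 19418 CPM in high-score and 28016 CPM in score-0 cells, while in HTO3+HTO9 it had 2125.5 CPM in high-score and 2225 CPM in score-0 cells. HTO4+HTO8 was the pair in which this list was not lower in high-score cells, with 15769 against 15383 CPM (ratio 1.025), and HTO3+HTO7 was that pair for the TNF list (ratio 1.05). The ratio of the antiviral list was lowest in HTO3+HTO6 (0.359) and HTO3+HTO7 (0.388) and highest in HTO4+HTO8 (0.690). CXCL10, a chemokine for T cells, ran from 9.03 CPM in the lowest through 49.97 in the median to 6218 CPM in the highest pair of high-score cells, against 22.0, 57.6 and 6948 CPM in score-0 cells. Its ratio of 0.864 (0.834 to 0.895) was close to 1 beside the range over pairs, and was 0.572 without matching on pair. The 3 pairs with the lowest shares of high-score cells, HTO4+HTO9, HTO2+HTO8 and HTO4+HTO8, were among the 4 pairs with the highest IFNg list in score-0 cells (15383 to 32575 CPM), and the fourth, HTO2+HTO9, had a share of 9.13%. With cells thinned to equal UMI totals, HTO2+HTO9 was at 3.93%, and these 4 pairs had the 4 lowest shares (1.27% to 3.98%). The interval of HTO2+HTO9 (1.81 to 7.33) then held the share of the next pair, HTO2+HTO6 (5.26%). Under the stricter filter HTO2+HTO9 was at 18.9%. Whether shares and levels are related over pairs was not tested.

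Single response genes differed in how far they were lower. GBP2, an interferon-induced GTPase, had 77.8 CPM in high-score and 260 CPM in score-0 cells (ratio 0.299, 0.269 to 0.332) and was lower per cell as well, with 1.32 against 2.27 UMIs, while its relative GBP5 had 1.27 (0.981 to 1.62). LTB, lymphotoxin beta, had 263 against 791 CPM (ratio 0.332, 0.314 to 0.351, or 0.134 under the stricter filter) and SOD2, a mitochondrial superoxide dismutase, 238 against 626 CPM (0.381, 0.359 to 0.404, or 0.223 under the same filter). IFITM1 (0.359), IFITM2 (0.396) and IFITM3 (0.450, or 0.518 with depth matched), membrane proteins that block virus entry, lay together at the low end of the antiviral list, and IFI27, its most abundant member, had 2629 against 5102 CPM (0.515, or 0.396 under the stricter filter). IDO1, an enzyme of tryptophan breakdown, had a ratio of 0.483, with 0.303 without matching on pair and 0.582 with depth matched. The proteasome activator PSME2 (0.990, 0.960 to 1.02), the peptide transporter TAP2 (1.19) and BIRC3 (1.197), an inhibitor of apoptosis induced by TNF, were not lower, and PLAU, the urokinase gene of the TNF list, had 185 CPM in high-score and 62.0 CPM in score-0 cells (ratio 2.98, 2.73 to 3.27), higher in 12 of 12 pairs. B2M, HLA-B and HLA-C lay between 0.623 and 0.647; HLA genes are alike enough to share reads.

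Markers of other cell types were checked in both groups. Epithelial markers (10 genes) summed to 5720 CPM in high-score and 5483 CPM in score-0 cells, and 296 of 296 high-score cells had UMIs of 3 or more of them. Fibroblast markers summed to 3.77 CPM in high-score and 7.37 CPM in score-0 cells, with LUM, PDGFRA, PDGFRB, FAP, THY1 and POSTN at 0 in high-score cells. Macrophage or monocyte markers summed to 49.6 against 60.7 CPM, with CSF1R, C1QA, C1QB and 4 others of 10 at 0 in high-score cells, and endothelial markers to 85.7 against 110.2 CPM, with VWF, CDH5, KDR and 4 others of 10 at 0. T cell markers summed to 20.0 against 8.39 CPM, with CD3E, CD3G, CD2, CD8A, CD4 and CD247 at 0 in high-score cells and 68 and 28 of their 101 UMIs from IL7R and LCK. UMIs of 3 or more fibroblast, T cell or neutrophil markers were found in 0 of 296 high-score cells, which allows a share of barcodes with such UMIs of up to 1.01% for each type (3 counts of the total) and sets no limit on cells of that type, and 1 cell each had them for macrophage and for endothelial markers. Neutrophil markers had 3 UMIs in high-score and 9 in score-0 cells. Reads were counted on the human genome, so cells of the mouse host were not assessed.

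Doublets, barcodes that hold 2 cells, would carry more UMIs and could mix a dividing with a resting cell. Of chance doublets, 9.55% would join cells of 1 hashtag pair and so keep a clear pair. A doublet of 2 pairs can also keep a clear pair if 1 of its cells carries far more hashtag counts. Those counts ran from 119 to 8057 per high-score cell, and the share of such doublets was not estimated. Among the 564 barcodes that passed the filter with a second hashtag under 4 times the third, 77 or 13.7% (10.9 to 16.8) had a score of 10 or more, against 9.89% of the cells used. Those 77 had a median of 19072 UMIs, against 15899.5 in high-score cells. The part of doublets in the results was not tested.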

How the data were processed

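One pooled 10x Genomics 3' gene expression library and its hashtag library were analysed as 1 sample. The authors deposited whole-number UMI counts per gene and cell, and counts per hashtag and cell. Per the file headers the matrix was written by Cell Ranger 5.0.1. Cell Ranger 2.1.1 and build GRCh38 are named in the submitters' processing notes. The labels' treatment fields name single conditions that are at odds with the pool they describe, and the description of the pool was used.

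Barcodes were kept with at least 500 genes, at most 20% mitochondrial UMIs, and a second hashtag (of HTO2 to HTO9) of at least 20 counts and 4 times the third. No doublet caller was run. Total UMIs were 5039799 in high-score and 17093914 in score-0 cells. A level is in CPM, computed from the deposited counts. Ratios are UMIs observed in high-score cells over those expected from score-0 cells of the same hashtag pair, with exact conditional 95% intervals. Levels have exact Poisson and shares exact Clopper-Pearson intervals. UMIs within a cell are not independent samples of a condition, so all intervals cover counting error only. Genes with 30 UMIs or more were measured, and a ratio of 2 or more, or of 0.5 or less, was called. Genes were named as the 7 scoring genes, the 4 of each list with the most UMIs, and the 15 highest and 15 lowest ratios outside the lists; the text says where others were added. The cells and lists were chosen with earlier results of these data known.

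Alternatives were pooling over pairs, matching on depth, thinning to 5000 UMIs, splitting the counts, other score limits, other cell filters, another scaling and other UMI minimums. The method was checked on simulated data. Computation used scipy 1.17.1 and numpy 2.4.6 with pandas 2.3.3 under Python 3.11.15, and plots used matplotlib 3.10.9.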

Additional observations from a re-analysis of the deposited data

Results flagged for a closer look

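Barcodes outside the cells compared also carried the mitosis transcripts. Among the 5375 barcodes over the mitochondrial maximum, 107 had a score of 10 or more (1.99%, 1.63 to 2.40), with a median of 9850 UMIs. Among barcodes that passed the filter but whose second hashtag was under 4 times the third, 77 of 564 had such a score, with a median of 19072 UMIs. The hashtags HTO1 and HTO10 belong to none of the 13 pairs. HTO1 had 4 counts in all high-score cells and 29 in all score-0 cells. HTO10 had 367 counts in high-score and 2075 in score-0 cells, with at most 17 in a high-score cell and a median of 0. What these counts come from was not tested.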

How the results depend on the processing

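With 1 library there is no replicate error, and hashtag pairs are populations without a known treatment. No paired analysis was possible because the labels' replicate numbers belong to the gene expression and hashtag libraries of the same cells and no result comes from a test; values within hashtag pairs stand in the report. Depth differed about 2-fold between the groups, and only 28 score-0 cells lay in the deepest of the 4 depth bins. Depth matching used 279 of the 296 high-score cells and left a difference in depth within the lowest bin. A stricter cell filter (1000 genes, 10% mitochondrial UMIs) left 53 high-score and 250 score-0 cells; a looser one (50% mitochondrial UMIs) gave 375 and 4390.

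Of 1160 single-gene values under the alternatives, 1113 kept their direction and their side of the 2-fold line, and of 250 list values 242 did. Of the 130 genes run, 45 moved by over 1.5 times under some alternative. The count of genes at 2 or more was 3044 with a minimum of 1 UMI. The count at 0.5 or less was 6220 with a minimum of 1 UMI, 623 with 100 UMIs and 730 under the stricter filter. Ribosomal proteins had a ratio of 1.03 under the looser filter and mitochondrially encoded genes 1.04 under the stricter one, both reversed. The anaphase-promoting complex list fell short of 2-fold at 1.24 as a median over members, and the cytokinesis list at 1.96 with a score limit of 5 and 1.91 under the stricter filter. MHC class II genes passed 0.5 at 0.393 without matching on pair, and antiviral genes at 0.442 and TNF genes at 0.405 under the stricter filter. Among single genes the direction turned under the stricter filter for LDHA (0.927), MT-CO3 (1.16), MT-ATP6 (1.05) and ANAPC11 (0.936). It turned under the looser filter for KRT8 (1.02), MT-CO2 (0.844) and ANAPC16 (1.02), and with depth matched for KRT18 (0.812), KRT19 (0.797), MT-CO2 (0.972) and CASP8 (1.08). It also turned with a score limit of 20 for KRT18 (0.987) and MT-CO2 (0.999), and with split counts for KRT18 (0.998). The share of high-score cells was 11.9% with a limit of 5, 7.72% with 20, 13.3% under the stricter filter, 6.30% under the looser one and 6.44% after thinning. Of 78 shares of single hashtag pairs under the alternatives, 26 were counted as moved and 52 as the same. Over pairs, the median ratio of UMIs per cell was 2.78 under the stricter filter. That of genes per cell was 1.74 under the stricter and 1.73 under the looser filter, and that of the mitochondrial share was 0.997 and 0.705 under the same filters. The stricter filter and higher UMI minimum take in fewer cells or genes by construction, and the looser filter and lower minimum more; other causes were not tested.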
